A study of Mus musculus with 2 samples.

Results

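The genes examined were 37 members of the fatty acid oxidation programme that the nuclear receptor PPAR-alpha controls in the liver, taken as a fixed list of symbols and found, all 37, among the 32285 genes of the deposited matrices. They were the receptor itself, 18 genes of mitochondrial beta-oxidation, 7 peroxisomal genes, 2 whose enzymes work in both organelles and 2 of omega-oxidation. The others were 1 of ketone body metabolism, 4 of a class called binding and activation of fatty acids, and 2 further targets. The peroxisomal class includes *Pex11a*, a factor of peroxisome division, and the binding and activation class *Acot1*, a thioesterase of acyl-CoA. All 37 had at least 200 UMIs in hepatocyte nuclei, the minimum set for a comparison, so that none was left out. A UMI is 1 counted RNA molecule.

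PPAR-alpha is a ligand-activated transcription factor that pairs with the retinoid X receptor and is activated by fatty acids and their derivatives, above all during fasting. Its targets carry fatty acids to acyl-CoA, move them into mitochondria through the carnitine shuttle, and shorten them there by repeated rounds of dehydrogenation, hydration, oxidation and thiolysis. Very long and branched chains are shortened first in peroxisomes, omega-oxidation in the endoplasmic reticulum makes dicarboxylic acids, and much of the acetyl-CoA leaves the liver as ketone bodies.

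Male C57BL6/J mice had eaten a MASH diet (AMYLIN liver NASH diet, 40% of energy as fat, 20% as fructose, with 2% cholesterol) for 5 months from 10 to 12 weeks of age, and their sorted liver nuclei were sequenced. There were 2 snRNA-seq libraries, 1 per genotype: *Themis* flox/flox, labelled Flox (titled WT), and *Themis* *Alb*-Cre, labelled HKO, where Cre under the albumin promoter should remove the floxed gene in hepatocytes. Liver tissue of several animals was pooled within a genotype, so no value below has a replicate, the genotype cannot be told apart from any other difference between the libraries, and no test between them was possible. Intervals are at the 95% level and cover counting error only, and where a pair of values is given the library labelled Flox comes first.

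The Flox-labelled library held 9363 nuclei with 58171337 UMIs, and the HKO-labelled one 10748 nuclei with 40475938 UMIs. Hepatocytes (hepatocyte-like nuclei, named from 16 markers after clustering) numbered 5725 and 4420, with 45310965 and 27310596 UMIs and medians of 7449 and 5826.5 UMIs per nucleus. The barcodes that both libraries shared numbered 27. *Themis* did not follow its label: it was at 165 (161 to 168) CPM in hepatocytes of the Flox-labelled library and 248 (242 to 254) CPM in those of the HKO-labelled library, where CPM scales the UMIs of a gene to a common total over the summed nuclei and is a share of nuclear RNA rather than an amount per cell. Counts were summed per gene and do not tell whether a floxed exon was present, so each direction below is one between libraries as labelled.

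The programme was a hepatocyte programme in both libraries. Of the 37 genes, 35 had their highest CPM in hepatocytes of the Flox-labelled library, and 33 did in the HKO-labelled library, among hepatocytes, hepatic stellate cells (HSCs), endothelial cells, cholangiocytes, T cells and B cells. Apart from *Fabp1* and *Pdk4*, the exceptions rested on few UMIs. In the Flox-labelled library this was *Etfa*, highest in B cells on 5 UMIs. In the HKO-labelled one these were *Acadvl*, highest in B cells on 3, and *Etfb*, highest in T cells on 10. *Ppara*, the receptor, was at 588 (581 to 595) and 495 (486 to 503) CPM in hepatocytes, against 14.5 (8.29 to 23.6) and 8.68 (4.33 to 15.5) CPM in endothelial nuclei. It was thus close to absent outside hepatocytes, at 2.04% and 1.90% of its hepatocyte level over the 5 other named types together. The same share was under 5% in both libraries for 3 of the 37 genes (*Ppara*, *Acsl1* and *Acaa1b*), under 10% for 11, and under 50% for 32.

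The 18 mitochondrial genes varied widely in this share. It was lowest for *Acad11*, an acyl-CoA dehydrogenase, at 5.98% and 7.85%. *Acadl*, the long-chain acyl-CoA dehydrogenase, at 64.0% and 66.8%, and *Etfa*, a subunit of the electron transfer flavoprotein, at 57.8% and 67.2%, had the highest. *Fabp1*, the liver fatty acid binding protein, had shares of 53.9% and 56.7%. *Alb*, the albumin gene of hepatocytes, was at 54.9% and 41.9%, and *Apoa2* at 47.0% and 54.5%. *Apoa1*, *Apob*, *Ttr*, *Fga*, *Fgb* and *Trf*, also abundant in hepatocytes, ran from 12.1% and 13.0% (*Apob*) to 48.1% and 43.0% (*Ttr*). In the HKO-labelled library *Fabp1* was highest in T cells, at 393 (317 to 482) CPM, against 369 (362 to 377) CPM in hepatocytes. *Pdk4*, the kinase that switches off pyruvate dehydrogenase, was the exception in both libraries, with 24.5 (16.1 to 35.6) and 26.8 (18.6 to 37.5) CPM in endothelial nuclei and 7.31 (6.54 to 8.14) and 12.5 (11.2 to 13.9) CPM in hepatocytes. In T cells it had 0 UMIs in both libraries, and a count of 0 still allows 17.4 and 12.8 CPM (3 counts).

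**Figure D1:**
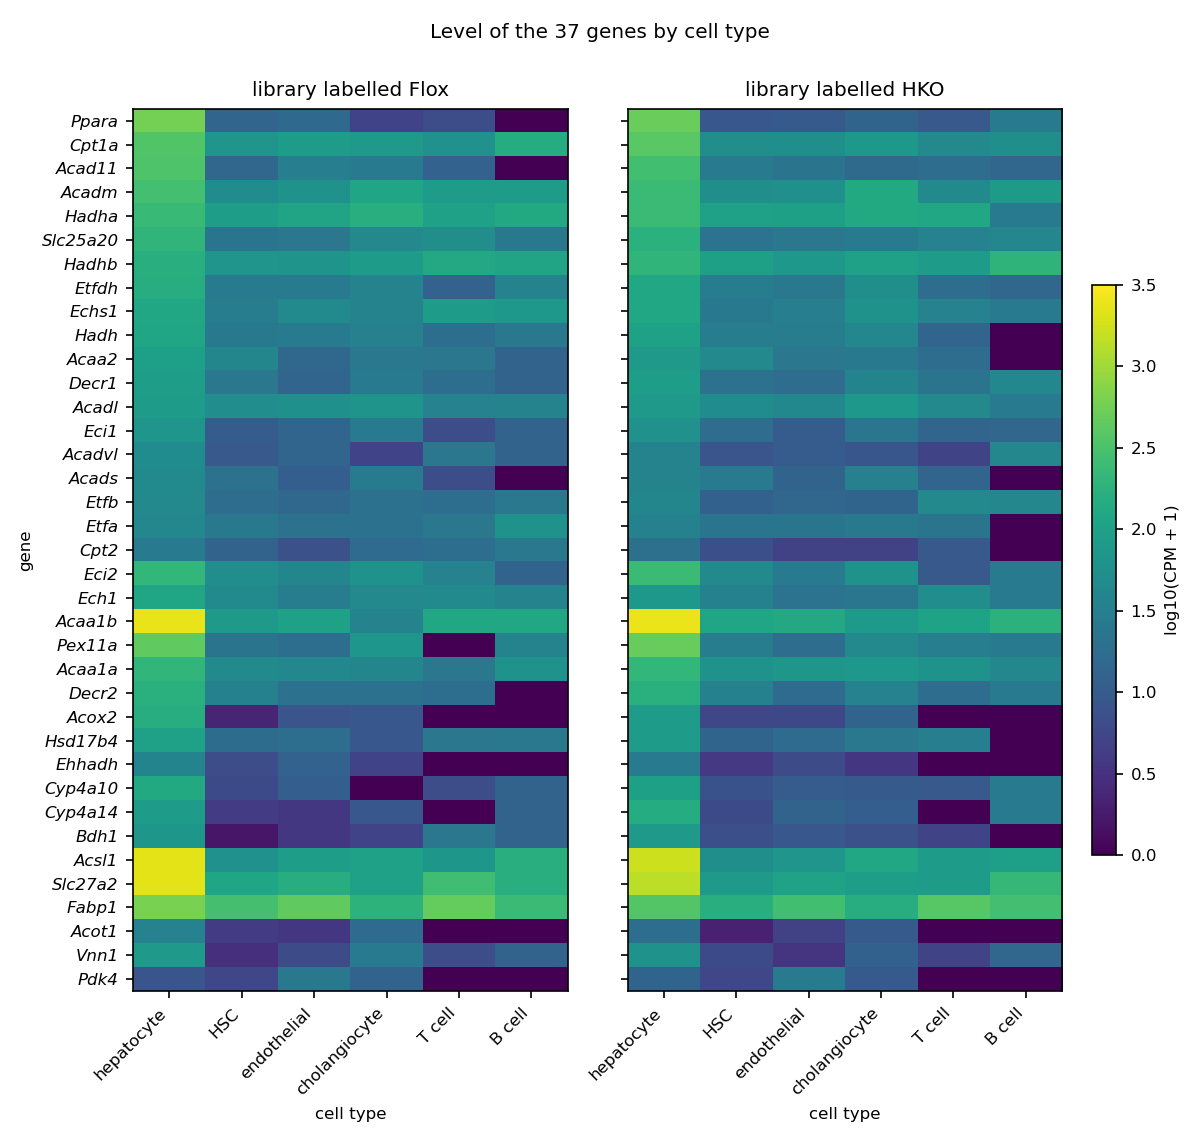
Level of each of the 37 genes (rows) in 6 named cell types (columns) of the Flox-labelled library (left) and of the HKO-labelled one (right), as log10(CPM + 1) by colour. The hepatocyte column is the brightest for most rows, *Ppara* among them, while *Fabp1* is bright in every column and *Pdk4* is brightest in endothelial nuclei.

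Unnamed clusters in which all 16 hepatocyte markers were high also carried the programme. A small cluster of cycling nuclei, 96 and 55 in number, held *Ppara* at 407 (367 to 451) and 366 (306 to 433) CPM. Its *Acaa1b*, a peroxisomal thiolase, was at 1535 and 1708 CPM, below the 2398 and 2490.5 CPM of hepatocytes. A cluster of 35 and 80 nuclei led by mitochondrial transcripts held *Fabp1* at 6325 and 6517 CPM, far above the 631 and 369 CPM of hepatocytes.

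Between the libraries, the 37 genes as a group were slightly lower in hepatocytes of the HKO-labelled library, and individual classes differed in direction. The median log2 ratio, on CPM with 1 CPM added, was −0.22, with 25 genes lower and 12 higher, beside a median of −0.02 and quartiles of −0.27 and 0.23 over the 11181 genes with at least 200 UMIs. Genes at least 1.5-fold lower in the HKO-labelled library were *Acot1*, *Acox2*, *Fabp1*, *Ech1* and *Slc27a2*, which is 5 of 37 where 9.86% of all genes passed the same fold. At least 1.5-fold higher were *Cyp4a14* and *Pdk4*, 2 of 37 against 7.44% of all genes. Neither count stands far from its background, so the fold alone marks nothing about the list. Restricting hepatocytes to nuclei with under 5000 UMIs brought the median to −0.14, over the 34 genes that gave a value, and that of all genes to 0.04.

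**Figure D2:**
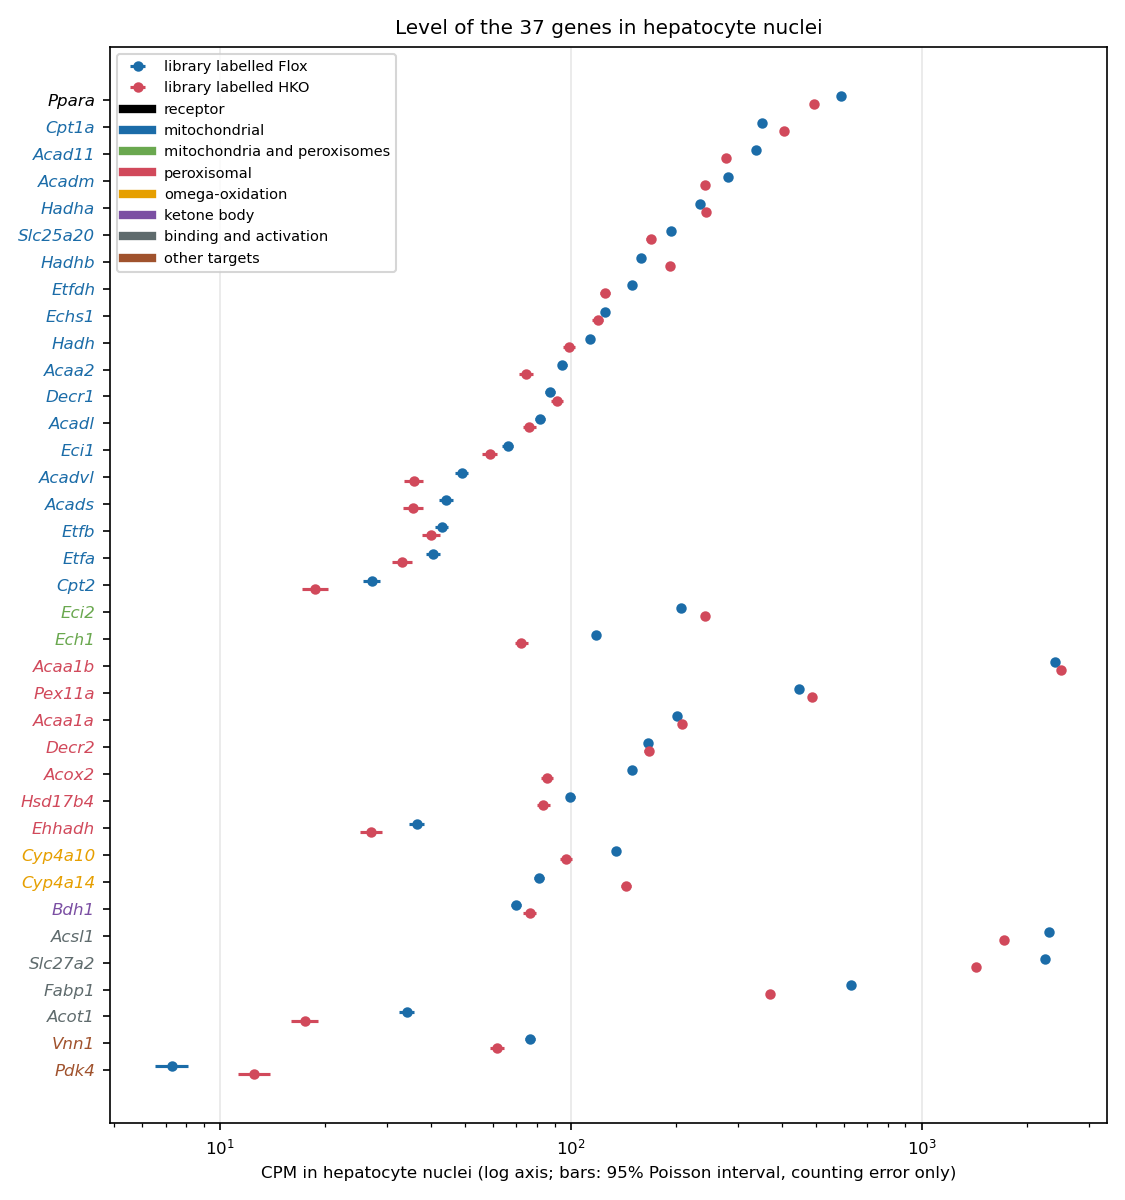
CPM in hepatocyte nuclei (log axis) of each of the 37 genes in the Flox-labelled library (blue) and in the HKO-labelled one (red), with 95% Poisson intervals, grouped by class through the colour of the gene name. Levels run from under 10 CPM for *Pdk4* in the Flox-labelled library to over 2000 for *Acaa1b*, and all 4 genes of binding and activation sit lower in the HKO-labelled library.

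The receptor was lower in the HKO-labelled library. *Ppara* (ENSMUSG00000022383; chr15:85734983-85802819, plus strand, GRCm38) had 26652 and 13509 UMIs, or 588 (581 to 595) and 495 (486 to 503) CPM, giving a ratio of 0.841 (0.824 to 0.859) and a log2 ratio of −0.25. Its intervals do not overlap. Over the 11181 genes counted, 4121 ratio intervals lay below 1 and 3818 above, so that an interval away from 1 is common here. *Rxra*, which encodes a partner receptor of PPAR-alpha, was at 88.3 and 86.5 CPM, giving a ratio of 0.980 (0.931 to 1.03).

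Genes of the binding and activation class, which includes the thioesterase *Acot1*, were lower throughout, with a median log2 ratio of −0.72 over the 4. *Fabp1* (ENSMUSG00000054422; chr6:71199827-71205023, plus strand), which carries fatty acids through the cytosol, was at 631 (623 to 638) and 369 (362 to 377) CPM, giving a ratio of 0.586 (0.573 to 0.599). *Fabp1* was lower by a like ratio outside hepatocytes, at 339.8 and 209 CPM over the 5 other named types, a ratio of 0.616 (0.563 to 0.674). Of 8 abundant hepatocyte genes measured in the same way, *Alb* was at 0.594, and the others ran from *Fgb*, at 0.306, to *Apob*, at 0.894. The part of free RNA in the *Fabp1* difference was not tested. Its log2 ratio of −0.77 went to −0.86 when the CPM of other cell types was subtracted, a step chosen after seeing the data. With hepatocytes chosen by marker share instead of clusters it went to −0.39.

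*Acsl1*, the main long-chain acyl-CoA synthetase of the liver, was at 2304 (2291 to 2318) and 1716 (1701 to 1732) CPM, giving a ratio of 0.745 (0.737 to 0.753). *Slc27a2*, a transporter and very-long-chain acyl-CoA synthetase, was at 2254 (2240.3 to 2268) and 1426 (1412 to 1440.1) CPM, giving a ratio of 0.633 (0.625 to 0.640). Both are among the most abundant of the 37 genes, and both ratio intervals lay below 1, as did those of 4121 of the 11181 genes. *Acot1*, a cytosolic acyl-CoA thioesterase, had the lowest ratio of the list, 0.511 (0.461 to 0.567), from 34.1 (32.4 to 35.8) and 17.4 (15.9 to 19.1) CPM. *Acot1* has near-identical paralogs among the Acot genes, whose reads can be lost or shared in counting, so that its level is uncertain.

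*Fabp1* was also the gene whose promoter held the closest match to the element that PPAR-alpha and RXR bind, a direct repeat of AGGTCA with 1 base between the copies (DR1). RefSeq promoters on GRCm38.p6 were matched for 31 of the 37 genes and searched on both strands over the 250 bases before the start. The match in *Fabp1* differed from the repeat in 1 of 12 letters, lay on the opposite strand at chr6:71199812-71199824, 55 to 67 bases before the RefSeq start, and ended 3 bases before the GENCODE start of the gene. *Echs1* and *Etfa*, both mitochondrial, had matches with 2 differing letters. Over all 27025 genes with a promoter, 0.566% had a match with up to 1 differing letter and 3.72% with up to 2, against 1 and 3 of the 31 genes here. A match is a description of the letters and not a bound site. The sequences show these 3 matches in capitals, 5′ to 3′ on the strand of the gene, for *Fabp1* with the bases before the gene (chr6:71199629-71199826, plus strand) and for the others with 8 bases on each side (*Echs1* at chr7:140116484-140116512 and *Etfa* at chr9:55512300-55512328, both minus strand).
Fabp1: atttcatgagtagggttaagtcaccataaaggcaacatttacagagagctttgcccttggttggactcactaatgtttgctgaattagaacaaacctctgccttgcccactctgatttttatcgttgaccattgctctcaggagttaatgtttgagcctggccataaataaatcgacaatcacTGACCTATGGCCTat
Echs1: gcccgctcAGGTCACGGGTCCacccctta
Etfa: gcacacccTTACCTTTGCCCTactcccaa

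Genes of the carnitine shuttle differed in no single direction. *Cpt1a*, the outer-membrane transferase that sets the rate of entry into mitochondria, was higher in the HKO-labelled library, at 351 (345 to 356) and 406 (399 to 414) CPM, giving a ratio of 1.16 (1.13 to 1.19). *Cpt2*, its inner-membrane counterpart, was lower, at 27.1 (25.6 to 28.7) and 18.7 (17.1 to 20.4) CPM, giving a ratio of 0.689 (0.620 to 0.765). *Slc25a20*, the carrier between them, was at 193 (189 to 197) and 169 (164 to 174) CPM, giving a ratio of 0.877 (0.846 to 0.909). Entry, exchange and release of acyl-carnitine were thus at ratios above, slightly below and further below 1.

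Among all 18 mitochondrial genes the differences were small, and most were downward. The median log2 ratio was −0.19, with 14 genes lower and 4 higher, and none reached 1.5-fold either way. After *Cpt2*, the lowest were *Acadvl*, the very-long-chain acyl-CoA dehydrogenase, with a log2 ratio of −0.44 (48.8 and 35.7 CPM), and *Acaa2*, the thiolase that ends each round, with −0.34 (94.7 and 74.6 CPM). Highest was *Hadhb*, the thiolase subunit of the trifunctional protein, with 0.27 (159 and 192 CPM), followed by *Cpt1a* and by *Decr1*, which reduces double bonds of unsaturated chains, with 0.06.

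The acyl-CoA dehydrogenases were below 1, with 1 exception among the alternatives. *Acadl*, *Acadm*, *Acads*, *Acadvl* and *Acad11*, the dehydrogenases for different chain lengths, had log2 ratios of −0.11, −0.22, −0.31, −0.44 and −0.29. Their electrons pass to *Etfa* and *Etfb*, the subunits of the electron transfer flavoprotein, at −0.29 and −0.10, and to *Etfdh*, which hands them to the respiratory chain, at −0.25. *Acadl* turned to 0.04 with nuclei under 5000 UMIs, and *Etfb* to 0.12 with hepatocytes chosen by marker share. The later steps were mixed: *Echs1*, the short-chain hydratase, was at −0.07, *Hadh*, the short-chain dehydrogenase, at −0.20, and *Hadha* at 0.05. *Eci1*, an isomerase for unsaturated chains, was at −0.17. When the CPM of other cell types was subtracted, a step chosen after seeing the data, *Acads*, *Acaa2* and *Etfa* passed 1.5-fold, at −1.06, −0.63 and −0.61. These 3 had 63.1%, 42.7% and 67.2% of their hepatocyte level outside hepatocytes of the HKO-labelled library.

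The 2 genes whose enzymes work in mitochondria and peroxisomes went apart. *Ech1*, a dienoyl-CoA isomerase, was at 118 (115 to 121) and 72.4 (69.2 to 75.7) CPM, giving a ratio of 0.613 (0.582 to 0.645), and *Eci2*, an enoyl-CoA isomerase, at 207 (203 to 211) and 242 (236 to 248) CPM, giving a ratio of 1.17 (1.13 to 1.21). *Ech1* was lower and *Eci2* higher in the HKO-labelled library, each by more than counting error, as were 4121 and 3818 of the 11181 genes.

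Peroxisomal genes were centred on no difference, with a median log2 ratio of 0.01 over 7 genes, 4 higher and 3 lower. *Acox2*, the oxidase for branched chains and bile acid intermediates, stood apart at 149 (146 to 153) and 85.5 (82.0 to 89.0) CPM, giving a ratio of 0.572 (0.546 to 0.600). *Ehhadh*, the bifunctional enzyme of the classical peroxisomal pathway, had a log2 ratio of −0.42 (36.4 and 27.0 CPM), and *Hsd17b4*, its counterpart for branched chains, −0.25 (99.6 and 83.6 CPM). *Acaa1b*, the most abundant of the 37 genes, was at 2398 (2384 to 2412) and 2490.5 (2472 to 2509) CPM, giving a ratio of 1.04 (1.03 to 1.05), and its near-identical copy *Acaa1a* at 201 and 208 CPM, giving a ratio of 1.04 (1.001 to 1.07). Reads of these copies can be shared or dropped in counting. *Pex11a*, which drives peroxisome division, was at 447 (441 to 453) and 488 (480.1 to 497) CPM, giving a ratio of 1.09 (1.07 to 1.12), and *Decr2*, the peroxisomal dienoyl-CoA reductase, at 166 and 167 CPM, giving a ratio of 1.01 (0.970 to 1.04).

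Omega-oxidation had the widest spread within a class, between genes of 1 family. *Cyp4a10* and *Cyp4a14* encode fatty acid omega-hydroxylases and are classical targets of PPAR-alpha. *Cyp4a10* (ENSMUSG00000066072; chr4:115518264-115533649, plus strand) was lower in the HKO-labelled library, at 135 (131 to 138) and 97.0 (93.4 to 101) CPM, giving a ratio of 0.720 (0.688 to 0.754). *Cyp4a14* was higher, at 81.2 (78.5 to 83.8) and 144 (139 to 148) CPM, giving a ratio of 1.77 (1.69 to 1.85). The pair was at a *Cyp4a10* excess in the Flox-labelled library and at a *Cyp4a14* excess in the other, and both directions held in all 14 alternatives that gave a value over all hepatocytes, with log2 ratios from −0.53 to −0.26 and from 0.76 to 1.42. The Cyp4a genes lie close together and are alike in sequence, so that which copy a read came from is uncertain.

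Ketone body metabolism was represented by *Bdh1*, the dehydrogenase that makes 3-hydroxybutyrate, at 69.8 (67.4 to 72.3) and 76.4 (73.1 to 79.7) CPM, giving a ratio of 1.09 (1.04 to 1.16). Of the further targets, *Vnn1*, the pantetheinase that is a sensitive marker of PPAR-alpha activity in liver, was at 76.5 (74.0 to 79.1) and 61.7 (58.8 to 64.8) CPM, giving a ratio of 0.807 (0.761 to 0.856). *Pdk4* was at 7.31 (6.54 to 8.14) and 12.5 (11.2 to 13.9) CPM, giving a ratio of 1.71 (1.47 to 1.99997), on 331 and 342 UMIs. *Bdh1* and *Pdk4* were higher in the HKO-labelled library and *Vnn1* lower. *Pdk4* lay below its endothelial level in both libraries, and its log2 ratio of 0.70 went to 0.07 with hepatocytes chosen by marker share and to 0.38 with 10 CPM added, so that it is not a firm hepatocyte value.

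Counting nuclei in place of molecules gave the same directions for the genes below. After each nucleus was thinned to 1000 UMIs, with 18 and 21 shallower hepatocyte nuclei left out, *Ppara* was detected in 44.2% (42.9 to 45.5) and 36.6% (35.2 to 38.0) of hepatocyte nuclei, against 95.1% and 84.8% before thinning. In endothelial nuclei, with medians of 1310.0 and 948 UMIs and 115 and 717 too shallow to thin, it was detected in 0.912% (0.335 to 1.97) and 1.13% (0.415 to 2.44). *Cyp4a14* was detected in 5.31% (4.74 to 5.92) and 9.48% (8.63 to 10.4) of thinned hepatocyte nuclei (16.6% and 24.5% unthinned), and in 0.152% (0.00385 to 0.844) and 0.752% (0.205 to 1.91) of endothelial ones. *Cyp4a14* was thus in more nuclei of the HKO-labelled library, and *Ppara* in fewer.

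The same count for *Cyp4a10* gave 10.4% (9.58 to 11.2) and 8.09% (7.30 to 8.94) of thinned hepatocyte nuclei (36.0% and 28.4% unthinned), and for *Acox2* 13.7% (12.8 to 14.6) and 8.41% (7.61 to 9.27) (63.7% and 36.5%). Endothelial shares of both were under 1% in either library. *Fabp1* was detected in 42.5% (41.2 to 43.8) and 28.6% (27.3 to 30.004) of thinned hepatocyte nuclei (91.5% and 74.6% unthinned), and still in 29.6% (26.2 to 33.3) and 17.7% (14.5 to 21.2) of endothelial ones, which should lack it. *Pdk4*, at 0.561% (0.384 to 0.791) and 1.16% (0.864 to 1.52), was below its endothelial shares of 2.43% (1.40 to 3.92) and 2.63% (1.45 to 4.38), and no difference between libraries is read from it.

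The position of hepatocytes along the liver lobule was set by *Glul*, glutamine synthetase, and *Slc1a2*, a glutamate transporter, which mark the cells next to the central vein. Hepatocytes with at least 0.1% of UMIs from these genes (*Glul*-high) numbered 1088 and 756, or 19.0% and 17.1%, with median depths of 6398.5 and 4994.5 UMIs against 7656 and 5972 in other hepatocytes. All 15 central markers were higher and all 15 portal markers lower in *Glul*-high nuclei of the Flox-labelled library, with median log2 ratios of 2.26 and −3.54. In the HKO-labelled one the medians were 2.34, over the 14 counted, and −3.16.

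In this division the 37 genes lay close to all genes in the Flox-labelled library, with 17 higher and 20 lower in *Glul*-high nuclei. In the HKO-labelled one 27 were higher and 10 lower, where all genes had 4882 higher and 5825 lower. The median log2 ratio of *Glul*-high over other hepatocytes was −0.02 over the 37 genes in the Flox-labelled library and 0.10 in the HKO-labelled one, beside −0.01 and −0.03 over all genes. Mitochondrial genes had medians of −0.03 and 0.04, and none of the 18 reached 1.5-fold in either library. At least 1.5-fold higher in *Glul*-high nuclei were *Acot1* and *Vnn1* in the Flox-labelled library (2 of 37, with 5.16% of all genes) and *Acot1* and *Cyp4a10* in the HKO-labelled one (2 of 37, with 4.46%). Lower by that fold was *Ehhadh* in the Flox-labelled library (1 of 37, with 7.31%), and no gene in the HKO-labelled one (0 of 37, with 7.01%). The counts upward are near the background and those downward below it.

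*Acot1* was at 31.1 CPM in other and 49.97 CPM in *Glul*-high hepatocytes of the Flox-labelled library, a ratio of 1.61 (1.42 to 1.81), and at 15.5 and 28.7 CPM in the HKO-labelled one, a ratio of 1.86 (1.49 to 2.29). *Cyp4a10* had ratios of 1.45 (1.36 to 1.54) and 1.80 (1.65 to 1.97), and *Vnn1* of 1.58 (1.46 to 1.71) and 1.28 (1.13 to 1.45). *Pex11a*, at 1.495 (1.45 to 1.55) and 1.38 (1.32 to 1.44), and *Bdh1*, at 1.41 (1.29 to 1.54) and 1.35 (1.21 to 1.51), came next. All 5 genes were thus higher near the central vein in both libraries. *Hsd17b4* (0.30 and 0.51 on the log2 scale) and *Eci2* (0.37 and 0.48) were higher there too, by less. *Ppara* itself was slightly lower there, with ratios of 0.936 (0.905 to 0.969) and 0.945 (0.900 to 0.992).

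*Ehhadh*, the only 1 of the 37 lower by that fold, was at 38.9 CPM in other and 23.1 CPM in *Glul*-high hepatocytes of the Flox-labelled library, a ratio of 0.595 (0.503 to 0.700). In the HKO-labelled library it was at 27.3 and 24.996 CPM, giving a ratio of 0.915 (0.734 to 1.13), an interval that includes 1. Of the mitochondrial genes, *Etfb* and *Cpt1a* were lowest in *Glul*-high nuclei of the Flox-labelled library, with log2 ratios of −0.31 and −0.25, against 0.00 and −0.04 in the HKO-labelled one. Highest in the Flox-labelled library were *Hadhb* and *Acad11*, at 0.11 and 0.10. *Acadl* and *Hadhb* led in the HKO-labelled one, both at 0.29, with *Cpt2* lowest, at −0.31 with a ratio of 0.797 (0.601 to 1.04).

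Within each class of hepatocytes the libraries differed much as they did overall. Among *Glul*-high hepatocytes the median log2 ratio of the HKO-labelled library over the Flox-labelled one was −0.11, with *Acot1*, *Acox2*, *Cpt2* and *Ech1* at least 1.5-fold lower (4 of 37, with 10.4% of all genes) and *Cyp4a14* higher (1 of 37, with 6.71%). Among other hepatocytes it was −0.22, with *Acot1*, *Acox2*, *Ech1*, *Fabp1* and *Slc27a2* lower (5 of 37, with 10.7%) and *Cyp4a14* and *Pdk4* higher (2 of 37, with 8.59%), all counts near the background. *Cyp4a14* was at 72.0 and 166 CPM in *Glul*-high nuclei, a ratio of 2.303 (2.05 to 2.59), and at 82.8 and 140.1 CPM in others, a ratio of 1.69 (1.61 to 1.78). *Vnn1* was lower by more in *Glul*-high nuclei, with ratios of 0.686 (0.599 to 0.783) and 0.845 (0.791 to 0.902). *Ehhadh* was at 1.08 (0.834 to 1.39) in *Glul*-high nuclei and 0.703 (0.639 to 0.772) in others.

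**Figure D3:**
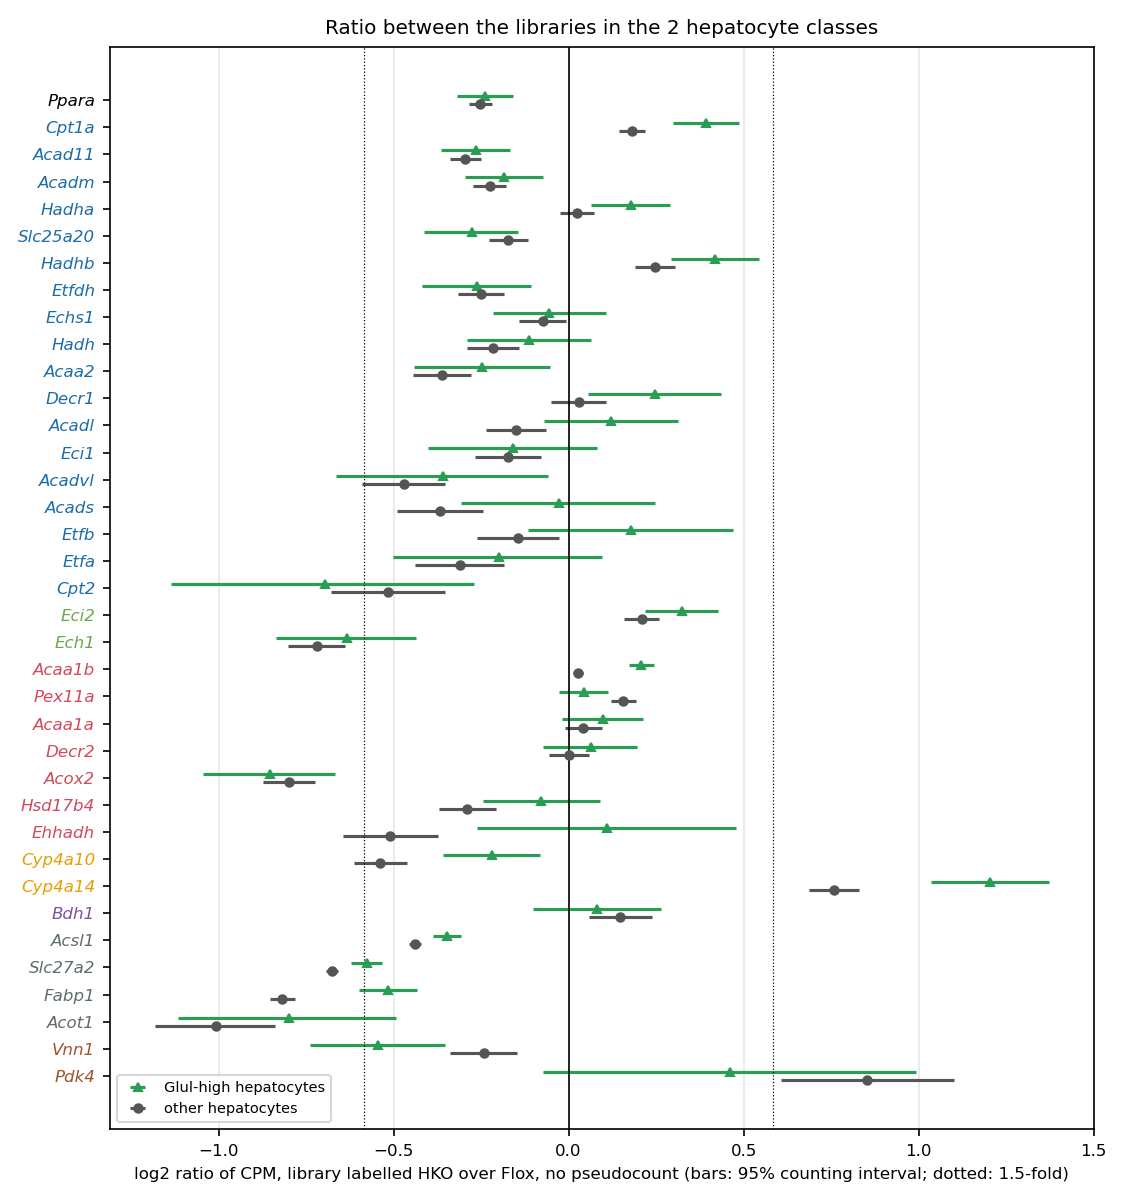
Log2 ratio of CPM, HKO-labelled over Flox-labelled library, for each of the 37 genes in *Glul*-high (green triangles) and other hepatocytes (grey circles), with 95% counting intervals and dotted lines at 1.5-fold. *Cyp4a14* lies furthest to the right in *Glul*-high nuclei, *Acot1* and *Acox2* lie past the left line in both classes, and most mitochondrial genes lie between the lines.

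A finer scale, which *Glul*, confined to the innermost cells, cannot give, set the portal side of the lobule apart for part of the programme. Hepatocytes with at least 2000 UMIs and at least 5 UMIs of the marker lists were ranked within their library by the balance of 15 portal against 15 central markers, and cut into 3 bins of 1892 to 1893 nuclei in the Flox-labelled library and 1414 to 1415 in the HKO-labelled one. None of the 37 genes was in these lists. In the Flox-labelled library, 10 of 37 genes were at least 1.5-fold higher in the central than in the portal bin, where 7.42% of all genes were, and none was lower (8.6% of all genes). In the HKO-labelled one, 6 of 37 were higher (5.15%) and none lower (5.37%). The share of the 37 genes that were higher centrally was above the background in both libraries. The 10 were *Acot1*, *Cyp4a10*, *Vnn1*, *Pex11a*, *Cyp4a14*, *Pdk4*, *Acaa1b*, *Bdh1*, *Acaa1a* and *Eci2*, of which *Pdk4* was below its endothelial level over all hepatocytes. No mitochondrial gene was among them, and the 18 had medians of −0.02 and 0.10, against 0.46 and 0.34 for the 7 peroxisomal genes.

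*Cyp4a10* was at 174, 175 and 45.3 CPM in the central, middle and portal bins of the Flox-labelled library, and at 119.8, 109 and 66.5 CPM in those of the HKO-labelled library. The central over portal ratio was 3.84 (3.52 to 4.20) in the former and 1.80 (1.63 to 1.99) in the latter. *Vnn1* went from 107 through 89.9 to 29.3 CPM and from 74.8 through 62.5 to 49.3 CPM, ratios of 3.64 (3.27 to 4.07) and 1.52 (1.34 to 1.71). Both genes were lower in the HKO-labelled library in the central and middle bins, and higher in the portal bin.

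*Cyp4a14* was highest in the middle bin of both libraries, at 77.9, 124 and 32.4 CPM and at 138, 185 and 108 CPM. *Acot1* had 42.3, 46.4 and 10.9 CPM in the Flox-labelled library, where its central over portal ratio was 3.89 (3.25 to 4.67), and 23.6, 17.3 and 12.2 CPM in the HKO-labelled one, where it was 1.94 (1.53 to 2.46). *Pex11a* was alike in the central bins, at 605 and 615 CPM, and apart in the portal bins, at 189 and 363 CPM. For *Cyp4a14* and *Pex11a* the gap between the libraries was widest in the portal bin, whereas for *Acot1* it closed there.

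Over all 37 genes, the central over portal ratio was larger in the Flox-labelled library for 18 and larger in the HKO-labelled one for 19, so that the genes as a group were not steeper in either. The 10 genes above were picked by their fall in the Flox-labelled library, and their comparison with the other library is a description. The central over portal ratio was 2.40 times as large in the Flox-labelled library for *Vnn1*, 2.13 times for *Cyp4a10*, 2.01 times for *Acot1*, 1.89 times for *Pex11a* and 1.88 times for *Cyp4a14*. *Eci2*, with 1.53 (1.45 to 1.62) and 1.57 (1.48 to 1.67), and *Bdh1*, with 1.70 (1.54 to 1.86) and 1.60 (1.43 to 1.79), differed between the libraries by less than counting error. The marker balance that sets the bins differed between the libraries, with lower cut points of −0.11 and 0.09 and upper ones of 0.73 and 0.68 on a scale from −1 to 1. With common cut points, chosen after seeing the data, the ratio was larger in the Flox-labelled library for 19 of the 37 genes. The share of all genes past 1.5-fold between central and portal bins was smaller in the HKO-labelled library.

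Set by bins, more of the 37 genes were past the fold downward in the middle bin than in the central or portal one. In the middle bin, 9 of 37 genes were at least 1.5-fold lower (10.3% of all genes) and none higher (7.05%), a downward share above the background. The middle bin ran from −0.11 to 0.73 of the marker balance in the Flox-labelled library and from 0.09 to 0.68 in the other. With common cut points it held 28.7% and 39.7% of the binned nuclei, and its count was not repeated with them. The central bin had 4 lower (9.88%) and 2 higher (8.03%), and the portal bin 4 lower (10.3%) and 4 higher (8.2%). These last counts lie near the background. The 4 higher in the portal bin were *Pdk4* (3.34), *Cyp4a14* (3.34), *Pex11a* (1.92) and *Vnn1* (1.68). Of these, *Pdk4* was below its endothelial level over all hepatocytes and is not a firm hepatocyte value. *Acot1*, with the largest difference in the middle bin, a ratio of 0.372 (0.312 to 0.441), had one of 1.12 (0.871 to 1.44) in the portal bin, an interval that includes 1.

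Several other genes were highest in the middle of the lobule or lowest near the central vein. *Ppara* was at 569, 628 and 560.3 CPM in the central, middle and portal bins of the Flox-labelled library and at 506, 516 and 469 CPM in the HKO-labelled one, lower in the latter in each bin. In the HKO-labelled library the counting intervals of its central and middle bins overlapped. *Ehhadh* had its peak in the middle, at 29.2, 48.3 and 29.5 CPM and 23.1, 30.6 and 26.3 CPM, with the central and portal bins alike in the Flox-labelled library. Its middle and portal intervals overlapped in the HKO-labelled library. *Cpt1a* was lowest in the central bin of both libraries, at 298, 379 and 369.7 CPM and 387, 429.7 and 400.1 CPM, and higher in the HKO-labelled library in each.

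The genes of binding and activation other than *Acot1* were lower in the HKO-labelled library in every bin. *Slc27a2* was at 2229, 2415 and 2087 CPM against 1481, 1485 and 1322 CPM. *Acsl1*, highest in the middle, was at 2368, 2751 and 1708 CPM against 1791, 1905 and 1486 CPM. *Fabp1* was at 649, 669 and 564 CPM against 439, 357 and 317 CPM, with its central over portal ratio at 1.15 (1.12 to 1.19) and 1.38 (1.32 to 1.45). Among the peroxisomal genes *Acox2* was lower in the HKO-labelled library by nearly the same ratio in each bin, 0.587 (0.537 to 0.641), 0.569 (0.526 to 0.614) and 0.574 (0.528 to 0.624). *Ech1* behaved likewise, with 0.648 (0.589 to 0.711), 0.608 (0.556 to 0.664) and 0.587 (0.537 to 0.642). The counting intervals of the 3 bins overlapped for *Acox2* and for *Ech1*. Those of *Fabp1*, 0.676 (0.651 to 0.703), 0.534 (0.513 to 0.555) and 0.562 (0.539 to 0.586), were further below 1 in the middle and portal bins than in the central one.

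**Figure D4:**
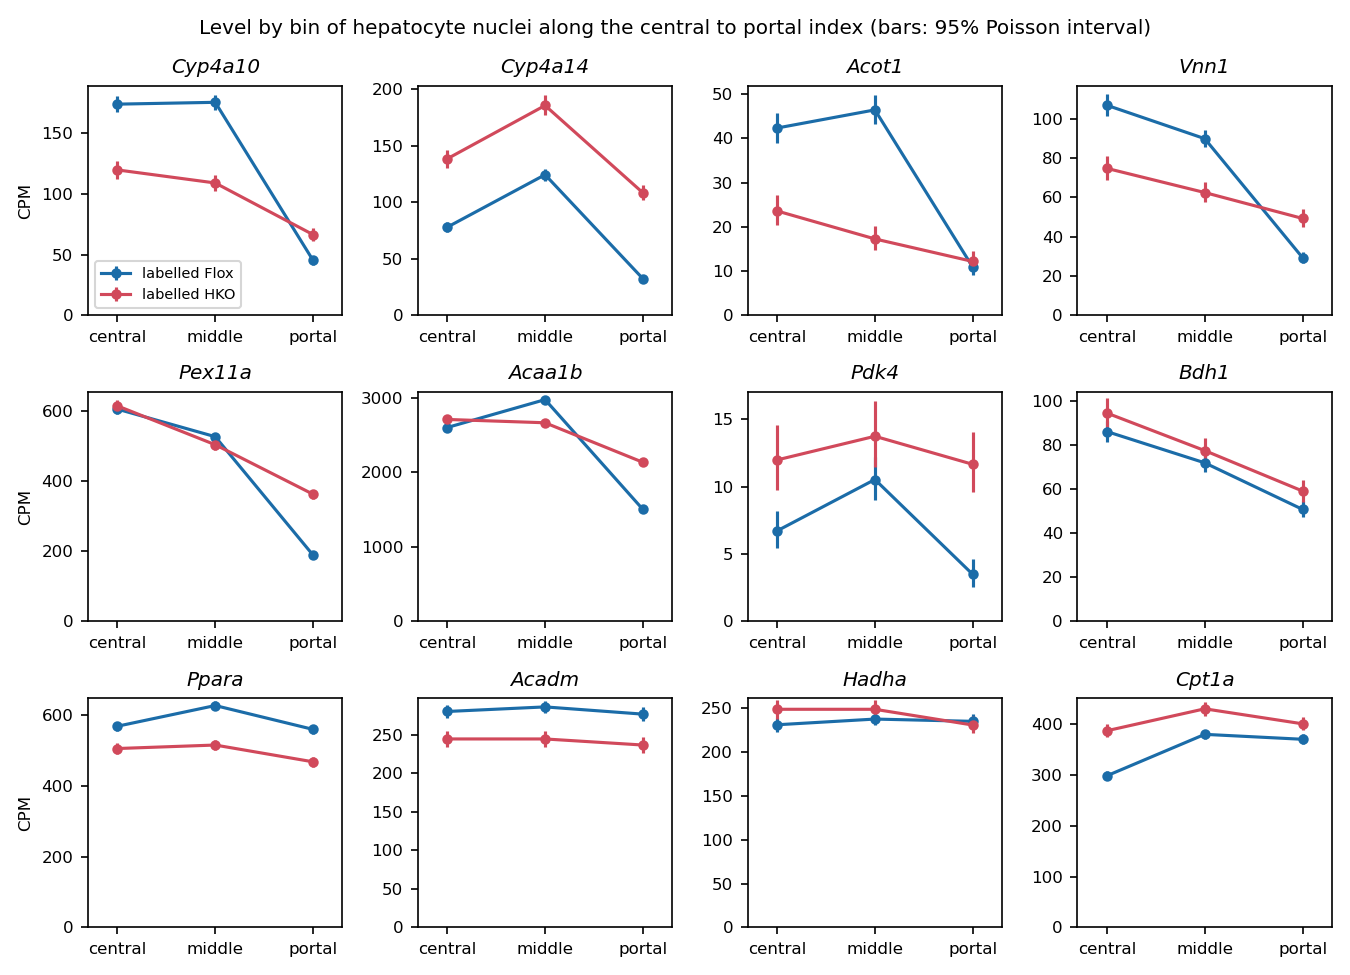
CPM of 12 of the 37 genes in the central, middle and portal bins of hepatocyte nuclei of the Flox-labelled library (blue) and of the HKO-labelled one (red), with 95% Poisson intervals and each axis starting at 0. *Cyp4a10* and *Vnn1* cross between the middle and portal bins, *Pex11a* and *Acaa1b* separate in the portal bin, and *Acadm* and *Hadha* are nearly flat.

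The wider pathway, 83 further genes in 6 lists, placed the 37 among their neighbours. Coregulators had a median log2 ratio of 0.08 over 14 genes. At least 1.5-fold higher were 2 and lower 0, against 7.44% and 9.86% of all genes. Those 2 were *Ppargc1a*, the coactivator PGC-1-alpha, at 42.5 (40.6 to 44.4) and 79.1 (75.8 to 82.5) CPM, giving a ratio of 1.86 (1.75 to 1.98), and *Lpin1*, a phosphatidate phosphatase that also acts as a coactivator, at 174 (170.0 to 178) and 401 (394 to 409) CPM, giving a ratio of 2.31 (2.24 to 2.38). The lowest were *Creb3l3*, a liver transcription factor that acts with PPAR-alpha, at −0.52, and *Rxrb*, at −0.22. The receptor was thus lower while these 2 coactivators were higher in the HKO-labelled library.

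Further mitochondrial genes had a median of −0.13 over 15, with 2 past 1.5-fold each way (7.44% of all genes higher and 9.86% lower). They ran from *Hsd17b10*, a mitochondrial hydroxyacyl-CoA dehydrogenase, at −0.94, and *Gcdh*, glutaryl-CoA dehydrogenase, at −0.59, to *Acad12*, at 0.71, and *Acacb*, at 1.04. *Acacb*, whose enzyme makes the malonyl-CoA that inhibits entry into mitochondria, was at 27.0 (25.5 to 28.6) and 56.5 (53.7 to 59.4) CPM. Further peroxisomal genes had a median of −0.10 over 19. Highest were *Abcd2*, a peroxisomal importer of very long chains, at 5.83 and 24.2 CPM, and *Acot4*, a peroxisomal thioesterase, at 164 and 276 CPM. *Nudt7*, a peroxisomal hydrolase of acyl-CoA, was among the lowest, at −0.52.

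Further omega-oxidation genes had a median of −0.26 over 9, with 4 at least 1.5-fold lower (9.86% of all genes) and 0 higher (7.44%). They were led downward by *Cyp4a12b*, at 23.6 and 2.97 CPM, and *Cyp4a12a*, at 30.3 and 11.2 CPM, hydroxylases that male mice express more than females. Both libraries came from males according to the study's methods. The highest were *Cyp4a31*, at 0.34, and *Aldh3a2*, which oxidises fatty aldehydes, at −0.03. Of the further ketone body genes, *Bdh2*, at −0.59, was lowest, and *Slc16a1*, the monocarboxylate transporter, at 0.75, was highest, ahead of *Acat1*, at −0.24.

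Further targets had a median of −0.22 over 20, with 3 at least 1.5-fold higher (7.44% of all genes) and 6 lower (9.86%). They spanned *Retsat*, retinol saturase, at −1.47, and *Krt23*, at −0.89, to *Cd36*, a fatty acid transporter, at 0.97, and *Lpl*, lipoprotein lipase, at 1.30. *Fgf21*, the fasting hormone that PPAR-alpha induces, was at 27.5 (26.0 to 29.0) and 35.7 (33.5 to 38.0) CPM, giving a ratio of 1.30 (1.19 to 1.41). Since the programme follows feeding and the time of day, the clock genes are given beside it. Of 9 counted, 5 were higher and 4 lower in the HKO-labelled library, with a median of 0.02. *Nr1d1* (0.61) and *Nr1d2* (0.62) were at least 1.5-fold higher there (7.44% of all genes), and 0 were lower by that fold (9.86%). *Per1* was at 0.49 and *Dbp* at 0.02, and the part of the clock genes in the differences was not tested.

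**Figure D5:**
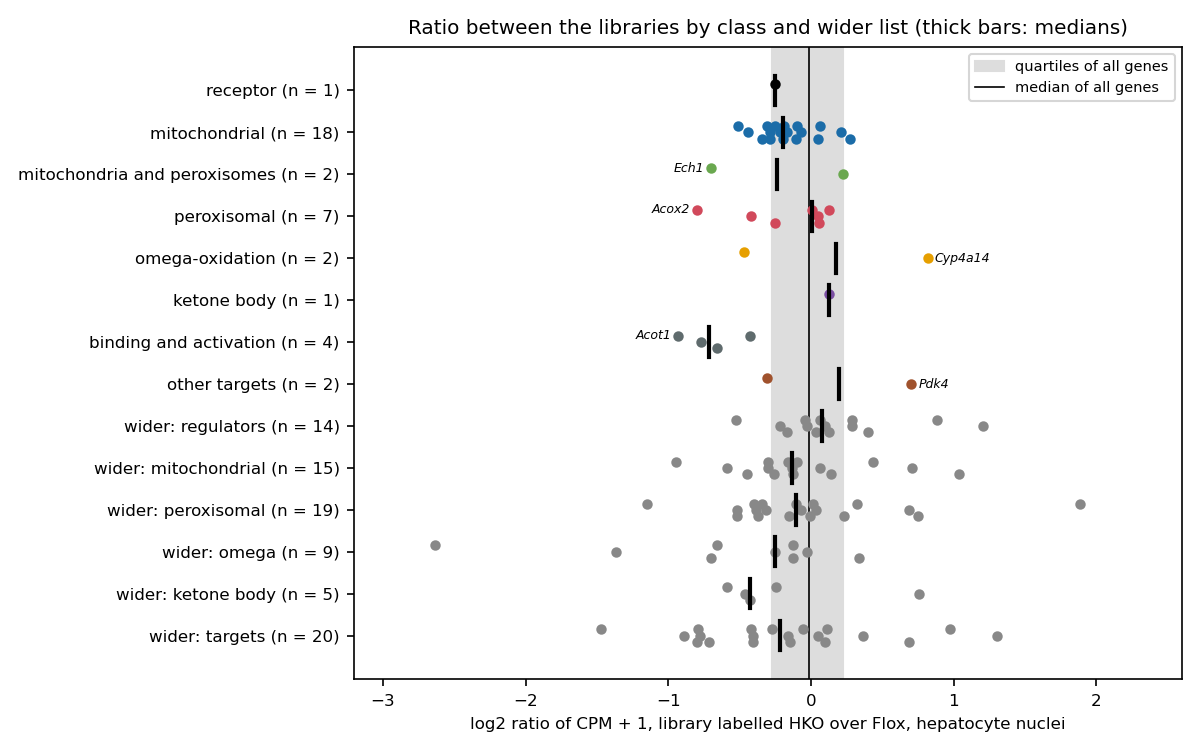
Log2 ratio of CPM + 1, HKO-labelled over Flox-labelled library, in hepatocyte nuclei, 1 point per gene, for the 8 classes of the 37 genes (upper rows) and the 6 wider lists (lower rows, light grey), with thick bars at the medians and the quartiles of all genes shaded. Mitochondrial genes lie mostly in the lower part of the shaded band, all 4 binding and activation genes to its left, and *Cyp4a14* and *Pdk4* to its right.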

How the data were processed

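Each library was deposited as a matrix of UMI counts per gene and nucleus barcode, which the authors made with Cell Ranger 8.0.1 on the mouse GRCm38 (mm10) reference without intronic reads, and the deposited counts carried no normalization. Excluding intronic reads leaves fewer molecules per nucleus. Near-identical copies (*Acaa1a* and *Acaa1b*, the Cyp4a genes, the Acot genes) can lose or share reads in such counting, and their levels are uncertain.

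Nuclei with at least 300 detected genes were kept, and the highest Scrublet scores (scanpy 1.11.5, Python 3.11.15) were removed as doublets, 701 (7.49%) and 920 (8.58%) nuclei, leaving 8659 and 9801. The libraries were integrated and clustered in Seurat 5.3.0 (R 4.3.3; 3000 variable features, 15 components, resolution 0.2), and clusters were named from fixed markers, so that a name means a resemblance. Counts were summed over nuclei and scaled to CPM, and ratios of HKO-labelled over Flox-labelled libraries used exact conditional binomial intervals (scipy 1.17.1), levels Poisson intervals and shares of nuclei Clopper-Pearson intervals. Log2 ratios had 1 CPM added to each value. A gene was counted with at least 200 UMIs over both groups (100 within a class or bin), and the fold for naming was 1.5. The ratios with their intervals and the call by fold, but not the other steps, were tested on simulated counts. Nuclei of a library are not replicates, so with 1 library per genotype no test was run. Alternatives, 19 in all, covered clustering, doublets, depth, scaling (TMM in edgeR 4.0.16), pseudocount, minimum counts and zone rules.

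The 37 genes, the wider lists and the tests were chosen with earlier results of these data known. All 37 could be named, with full values for the small classes and for the 3 highest and 3 lowest mitochondrial and peroxisomal genes. Of each wider list the 2 highest and 2 lowest were named, with *Rxra*, *Ppargc1a* and *Fgf21* in any case, and a few genes of these lists are not reported here. Promoters came from RefSeq (GRCm38.p6).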

Additional observations from a re-analysis of the deposited data

Results flagged for a closer look

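For 4 genes, *Glul*-high hepatocytes lay below other hepatocytes in the Flox-labelled library and above them in the HKO-labelled one. *Cyp4a14* had log2 ratios of −0.20 and 0.24, which differ by 0.45. *Fabp1* had −0.13 and 0.18, which differ by 0.30. *Acaa1b* had −0.08 and 0.10, which differ by 0.18, and *Slc27a2* −0.05 and 0.05, which differ by 0.10. For *Cyp4a10* and *Vnn1* the libraries differed in opposite directions at the ends of the lobule. On the log2 scale, the HKO-labelled over Flox-labelled ratio of *Cyp4a10* was −0.53 in the central and 0.55 in the portal bin, a difference of −1.09, and that of *Vnn1* was −0.51 and 0.73, a difference of −1.26. Each library counts as 1 sample, so none of these differences was tested.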

How the results depend on the processing

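The depth of the nuclei, the choice of hepatocytes and RNA shared between cell types set the limits of these values, since the HKO-labelled library was shallower and no replicate bounds any difference. No paired analysis was possible because each genotype had 1 library. Between libraries over all hepatocytes, the medians of the 37 genes and of the mitochondrial genes stayed below 0 under the 14 alternatives that apply. The peroxisomal median, near 0, was −0.01 with TMM scaling and −0.14 once the CPM of other cell types was subtracted, an alternative chosen after seeing the data. That subtraction also brought the median of the 37 genes to −0.29, that of the mitochondrial genes to −0.27, the count at least 1.5-fold lower to 8, and the median in other hepatocytes to −0.31. With nuclei under 5000 UMIs these medians were −0.14, −0.10 and, in other hepatocytes, −0.13, beside 0.04 for all genes over all hepatocytes. In that setting 1 gene was at least 1.5-fold higher. With hepatocytes chosen by marker share, 1 gene was higher by that fold. With the marker bins in place of *Glul*-high and other hepatocytes, the median between libraries on the portal side was −0.14, or −0.15 with common cut points (also chosen after seeing the data), and the *Acot1* ratio there turned to 0.15 or 0.0677. Common cut points turned the *Ehhadh* ratio of central over portal nuclei in the Flox-labelled library to 0.0151, where *Glul*-high over other gave −0.72. The cause of these changes was not tested.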

Other observations

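In the unnamed cycling cluster with hepatocyte markers, *Cyp4a14* was again higher in the HKO-labelled library, whereas the intervals of *Cyp4a10* overlapped. *Cyp4a14* was at 19.0 (11.1 to 30.5) CPM in its 96 nuclei of the Flox-labelled library and 214 (169.5 to 268) CPM in its 55 of the HKO-labelled one, while *Cyp4a10* was at 57.1 (42.5 to 75.1) and 79.7 (53.4 to 115) CPM. *Slc27a2* was at 1764 (1678 to 1853) and 1037 (935 to 1147) CPM there. These genes were singled out after their values were seen.

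In the immune cluster led by Lilrb4a, of 770 and 1753 nuclei, where all macrophage, dendritic cell and neutrophil markers were high, *Cpt1a* was at 79.0 (65.8 to 94.0) and 78.1 (67.3 to 90.2) CPM and *Hadha* at 90.2 (76.1 to 106) and 82.3 (71.2 to 94.7) CPM. *Pdk4* had 2 and 0 UMIs there, at or under the 3 counts that a count of 0 still allows. A display list of 25 oxidation genes had a median log2 ratio of −0.25 over hepatocytes. The study drew it up on these samples, so it is no independent evidence of direction. Most genes of this list are also members of the fatty acid oxidation programme examined above. The list thus largely repeats values already given and is not a separate observation. Of its genes 22 were lower and 3 higher, and 3 were at least 1.5-fold lower, where 9.86% of all genes were.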
